A study of Drosophila melanogaster with 18 samples.

Results

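Photoreceptor nuclei of flies aged to day 30 (D30) were compared with those of flies at day 5 (D5), 3 samples against 3, out of 18 samples in 6 groups. The samples were chosen by their labels alone, and none of the 6 was given the blue light treatment of the other groups. All flies were male and white-eyed, with a w1118; cn bw background and the transgene Rh1-GFP-Msp300KASH, line 3-1, which puts GFP on the nuclear membrane under the regulatory elements of ninaE (Rh1) and so in the outer photoreceptors R1-R6. The insertion lies in the 5′ part of Catalase (Cat), so that D5 and D30 flies alike carry a raised level of this gene, and both were kept under alternating light and dark. Tagged nuclei were pulled down from pools of flies, and total nuclear RNA without ribosomal RNA was sequenced. Per the paper, the white light of the incubator had a strong blue peak, so age and days under this light cannot be told apart. The question the comparison addresses is how gene expression in these neurons differs with age without the added blue light treatment. Of the 17811 counted features, 9427 had enough reads to be tested.

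The outer photoreceptors are the motion-sensing cells of each unit eye and stay in place for the whole life of the fly. Light activates the rhodopsin Rh1, which acts through a Gq protein and phospholipase C to open the TRP and TRPL channels, and the cell releases histamine as its transmitter. Since the RNA came from nuclei, it holds unspliced transcripts and RNAs that stay in the nucleus, among them the small nucleolar RNAs (snoRNAs), which are processed out of introns of host genes and guide chemical modification of ribosomal RNA.

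Read pairs counted on genes, in units of 1e6, ranged from 16.7 to 18.9 at D5 and from 11.4 to 15 at D30. They were 35.4% to 41.5% of all read pairs at D5 and 24.5% to 26.3% at D30. Pairs that aligned to several places, which were not counted on genes, were 7.95% to 10.5% at D5, 6.66% to 9.0% at D15 and 25.2% to 26.6% at D30. The D30 libraries were sequenced on another flow cell than D5 and D15, which shared a lane, so age and flow cell cannot be told apart in the D30 comparison. D30 replicate 1 stood apart from the other D30 samples in its composition, with a TMM scaling factor of 1.28 against 1.06 and 0.999. Levels are given as cpm, the count of a gene as a share of 1e6 counts of its library after TMM scaling, and a gene was called, and is said to have risen or fallen, at an adjusted p under 0.05 in edgeR's quasi-likelihood test with Benjamini-Hochberg adjustment. A summed level of a list or class covers all its members that were counted, also those under the filter for testing.

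The tag and the eye markers were present at both ages. The GFP feature was at 127, 120 and 153 cpm at D5 and at 97.2, 173 and 255 cpm at D30 (log2 fold change 0.40 ± 0.33 SE, adjusted p = 0.429). Cat was at 2878, 6198 and 4112 cpm at D5 and at 2539, 4472 and 4009 cpm at D30, with a log2 fold change of -0.19 ± 0.26 and an adjusted p of 0.655. The samples of the 2 ages overlapped for both genes. The pigment transporter gene w, which gives the white allele of these flies its name, had a log2 fold change of -0.02.

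At D30, 1651 genes differed from D5, which was 17.5% of the genes tested. Of these, 829 rose (8.79%) and 822 fell (8.72%). Among the genes that rose the median was 0.84 on the log2 scale and among those that fell -0.74, beside 0.05 over all tested genes. A change of over 1 on the log2 scale was seen for 317 of the genes that rose and 177 of those that fell. Changes over 2 on the log2 scale were seen for 27 genes that rose and 52 that fell, and most of these 52 were snoRNAs, described below. Outside the snoRNAs, increases of that size outnumbered decreases. For 665 of the genes that rose and 581 of those that fell, the 3 D30 samples lay entirely on one side of the 3 D5 samples, as they did upwards for 15.4% and downwards for 11.1% of all tested genes. The number of calls depended on the model: without the 2 factors of unwanted variation (RUVs) estimated from the replicates, 415 genes (4.4%) were called, 230 higher (2.44%) and 185 lower (1.96%), and all 415 were among the 1651. Without D5 replicate 3 the count was 898 (346 higher), without D30 replicate 2 it was 1033, and without D30 replicate 1, which stood apart, it was 1471 (619 higher, 852 lower). Fewer nuclei of a cell type and less RNA per nucleus cannot be told apart in any of these values.

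**Figure D1:**
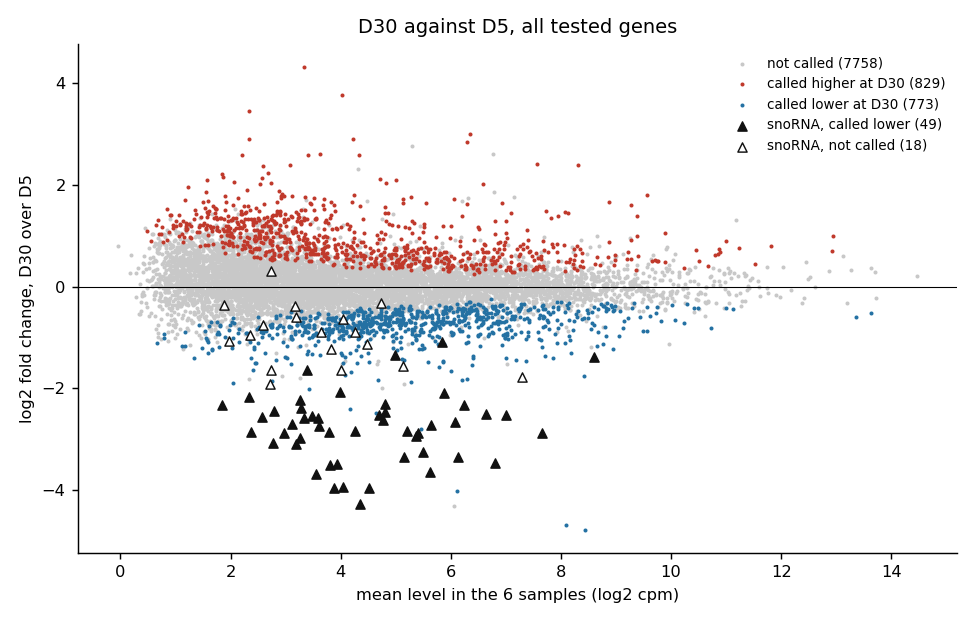
Log2 fold change of D30 over D5 (y axis) against the mean level in the 6 samples in log2 cpm (x axis) for the 9427 tested genes, each a point, red where called higher and blue where called lower at D30. Triangles are snoRNAs, filled for the 49 called lower, and they make up most of the points below -2.

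The largest increase among the genes tested was that of CR43086, a pseudogene on chromosome arm 3L (17868740 to 17870573, BDGP6, the dm6 coordinates). It was at 1.2, 0.740 and 0.990 cpm at D5, at 6.01, 6.70 and 7.21 cpm at D15 and at 17.4, 18.9 and 21.0 cpm at D30 (log2 fold change over D5 4.32 ± 0.31, adjusted p = 5.15e-06). All D30 samples lay above the D5 and the D15 range, and the gene was called in each of the 6 fits that left out 1 D5 or D30 sample. Its neighbours CG34002 (log2 fold change 2.38), CG5535 (1.61) and CG7408 (0.80) also rose, so that 4 tested neighbours in a row were called higher there.

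CG33003, an uncharacterised gene on 2L, was at 1.42, 2.73 and 2.31 cpm at D5 and at 16.7, 26.6 and 47.7 cpm at D30 (3.77 ± 0.56, adjusted p = 6.83e-04). Its D15 samples, at 20.9, 45.8 and 13.8 cpm, overlapped those of D30. Kif3C, a kinesin motor gene on chromosome 4, rose from 17.6, 24.9 and 19.5 cpm to 84.4, 163 and 180 cpm (3.00 ± 0.28). All D30 samples lay above all D5 samples. Kif3C overlaps 3 annotated genes on its own strand and 10 on the other, and whether counting used strand is not given in the sources used here, so part of these reads may belong to overlapping genes.

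SPH93, a serine protease homologue, was at 0.798, 5.52 and 2.40 cpm at D5 and at 62.2, 30.5 and 10.7 cpm at D30 (2.90 ± 0.49, adjusted p = 1.42e-03). The ages did not overlap, and the D30 samples spread widely among themselves, with replicate 1 highest. SPH93 lies in a run of 5 tested neighbours on 2L that all rose, with dl (0.58), the NF-kappaB factor Dorsal, lncRNA:CR46204 (1.33), CG5050 (1.65) and CG18563 (1.38). Ipk1, the inositol pentakisphosphate 2-kinase, rose from 170, 90.9 and 118 cpm to 343, 546 and 639 cpm (2.39 ± 0.20, adjusted p = 1.59e-05). CG13284 went from 108, 119 and 110 cpm to 244, 294 and 401 cpm (1.5 ± 0.12). Of abundant nuclear RNAs, lncRNA:CR34335 on X rose from 413, 312 and 294 cpm to 1162, 1067 and 1275 cpm (1.80 ± 0.16, adjusted p = 1.76e-05), with D15 in between at 454 to 519 cpm. Other genes with large increases were lncRNA:CR44699 (3.46), lncRNA:CR44348 (2.90), Scp1 (2.61), a sarcoplasmic calcium-binding protein, and the pseudogene CR42546, from 4.90, 5.69 and 5.47 cpm to 24.4, 40.1 and 40.1 cpm.

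The largest decreases outside the snoRNAs came from one stretch of 2L. CG17005 (9327744 to 9330332, plus strand) was at 277, 1043 and 688 cpm at D5 and at 20.7, 25.9 and 33.7 cpm at D30, a log2 fold change of -4.78 ± 0.66 (adjusted p = 4.94e-04). The D5 samples differed widely among themselves, and all were above D30. In the blue light groups, also of day 5 but from another lane, the gene was at 3231 to 5448 cpm after 3 h. It was at 2956, 598 and 7.68 cpm after 5 h and at 4.95 to 6.46 cpm after 8 h, below D30. Its level thus also varied widely among flies of the same age. Directly upstream on the same strand, lncRNA:CR45456 went from 204, 895 and 478 cpm to 18.4, 20.3 and 27.2 cpm (-4.69 ± 0.63) and lncRNA:CR45457 from 62.9, 195 and 132 cpm to 9.80, 6.61 and 9.42 cpm (-4.02 ± 0.66). The order of the samples was the same in these 3 genes at D5, with replicate 2 highest and replicate 1 lowest. The next gene, the cyclin-dependent kinase subunit Cks30A, had too few counts in some samples for the filter used here and was at 17.4, 186 and 101 cpm at D5 and at 1.74, 2.94 and 2.73 cpm at D30. With a filter of cpm over 1 in 3 samples, under which 4.4% of genes were called (1.55% higher, 2.85% lower), its log2 fold change was -5.46 ± 0.91 (adjusted p = 3.67e-03). Eaat1, the glutamate transporter gene that follows, also fell, by 0.97 on the log2 scale.

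Among the genes that fell with the smallest p-values, PPO2, a prophenoloxidase of crystal cells, went from 33.6, 41.3 and 46.8 cpm to 14.6, 8.08 and 4.76 cpm (-2.48 ± 0.21, adjusted p = 1.59e-05). GV1 was at 28.2, 30.1 and 27.1 cpm at D5, at 15.1 to 20.2 cpm at D15 and at 13.3, 9.62 and 9.51 cpm at D30 (-1.49 ± 0.14). Jhbp13, named as a juvenile hormone binding protein, went from 21.1, 23.4 and 27.8 cpm to 10.6, 8.30 and 7.49 cpm (adjusted p = 8.10e-05). For these genes the ages did not overlap. The histone methyltransferase gene trr, whose product marks enhancers with monomethylated H3K4, fell from 199, 256 and 212 cpm to 94.8, 122 and 135 cpm (-0.97 ± 0.10, adjusted p = 8.10e-05), although without the factors its adjusted p was 0.238.

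**Figure D2:**
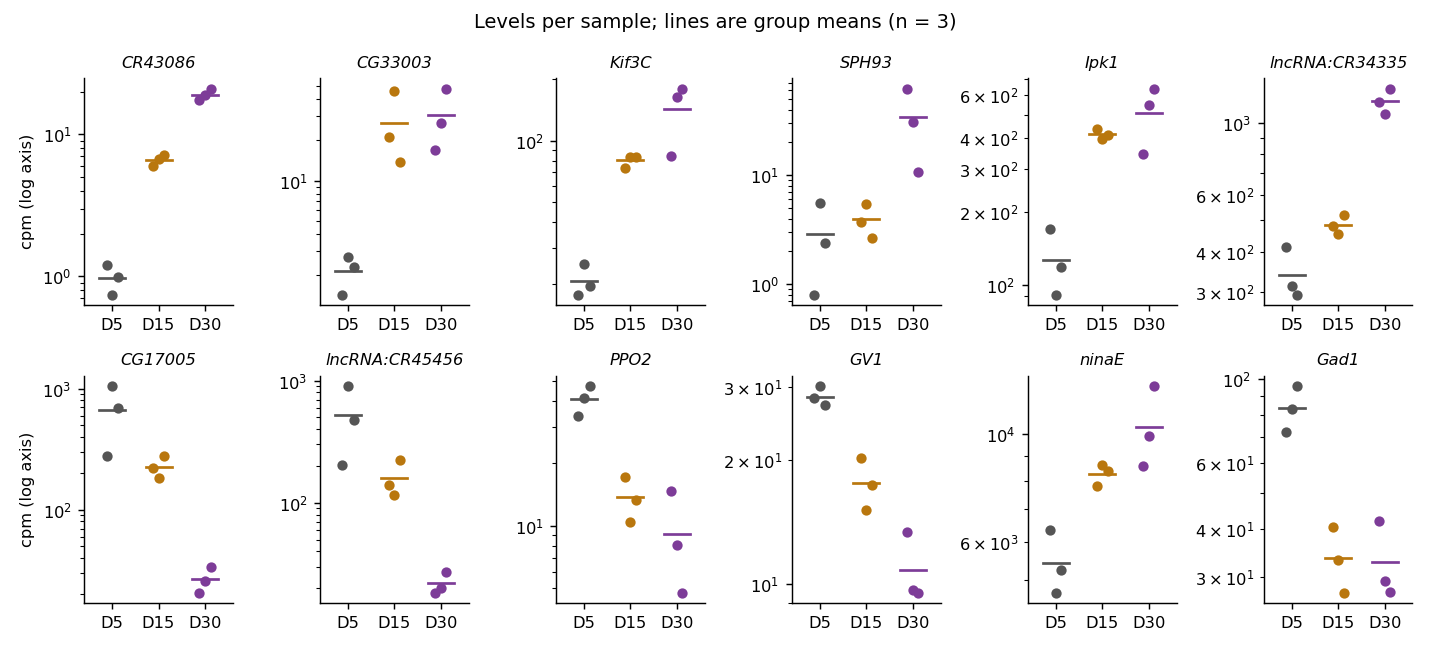
Levels in cpm on log axes (y) in the 3 samples each of D5, D15 and D30 (x) for 12 genes, with lines at the group means. The D30 points of CR43086 and lncRNA:CR34335 lie above all D5 and D15 points, those of CG17005 and lncRNA:CR45456 lie below them, and those of Gad1 overlap the D15 points.

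Most of the small nucleolar RNAs tested fell. Of 67 snoRNAs tested, 49 (73.1%) were called lower at D30 and 0 higher, beside 8.72% lower over all tested genes, and their median log2 fold change was -2.51. H/ACA snoRNAs guide the conversion of uridine to pseudouridine and were taken here as those with names that begin with snoRNA:Psi. They accounted for most of these decreases, with 40 of 47 lower and a median of -2.70. Of 15 with other names 8 fell and 0 rose, among them snoRNA:Or-aca5 (-3.47) and snoRNA:Or-aca4 (-2.66), whose names hold aca. Me in a name stands for guides of methylation. Of 77 counted RNAs with names that begin with snoRNA:Me, only snoRNA:Me28S-A1322 passed the filter. It was the single member of the 67 with a fold change above 0 (0.31). Summed over the 77, the level was 132, 38.2 and 118 cpm at D5 and 21.8, 28.1 and 44.2 cpm at D30, so the ages overlapped. The 67 also hold 4 RNAs with scaRNA names, of which 1 was called lower, scaRNA:MeU5-C46 (-1.37). Another with Me in its name, scaRNA:MeU2-48 (-1.64), was not called. The U3 snoRNAs, which are of the C/D type and act in the processing of ribosomal RNA, fell, with snoRNA:U3:9B at -2.47, snoRNA:U3:54Ab at -2.09 and snoRNA:U3:54Aa at -1.33. The tested snoRNAs had a median annotated length of 141 bases (55 to 316). Letters at the end of a name mark copies that can be near-identical, and read pairs that aligned to several copies were not counted.

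Levels were summed over the 106 counted H/ACA snoRNAs so defined by name, of which 47 were tested. The sum was 3314, 1585 and 2873 cpm at D5, 543, 1222 and 841 cpm at D15 and 404, 299 and 748 cpm at D30. The lowest D5 sample was thus above every sample of the later ages. Among all 67 tested snoRNAs, the largest decreases were those of snoRNA:Dek-a, from 48.9, 15.7 and 51.7 cpm to 2.05, 1.40 and 3.17 cpm (-4.28 ± 0.78, adjusted p = 2.40e-03), snoRNA:Psi18S-1854c (-3.96), snoRNA:Psi18S-1086 (-3.96), snoRNA:Psi28S-3327a (-3.95) and snoRNA:Psi28S-2562 (-3.68). In 52 of the 67 snoRNAs the D30 samples all lay below the D5 samples, beside 11.1% of all tested genes.

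Few of the host genes were called. Of the 67 snoRNAs, 59 lie within 31 tested host genes on the same strand, of which 0 rose and 1, the splicing factor gene SC35, fell, and the median log2 fold change of the hosts was 0.10. For example, the 6 snoRNAs of the ribosomal protein gene RpS5a that were called lower sit in a host with a log2 fold change of 0.28, and the 6 of Hrb98DE, an RNA-binding protein gene, in a host with -0.09. Of 18 tested snRNAs, another class of short nuclear RNAs, 3 were called lower (median -0.94). Without the factors, 26 snoRNAs were called lower and the median was -2.39. At D15, which shared the lane with D5, 35 were called lower with a median of -2.02, although this comparison uses the same D5 samples, and none of the 67 was called between D30 and D15. The share of read pairs that aligned to several places was raised at D30 and not at D15, and whether it bears on the snoRNA levels was not tested. In the blue light groups, sequenced in another lane, most sums for the H/ACA snoRNAs lay below the D5 samples, at 687 to 1006 cpm after 3 h and 412 to 1446 cpm after 8 h, while replicate 1 of the 5 h group lay within the D5 range, at 1980 cpm. Without single D5 or D30 samples, 43 or more of the snoRNAs were called lower.

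**Figure D3:**
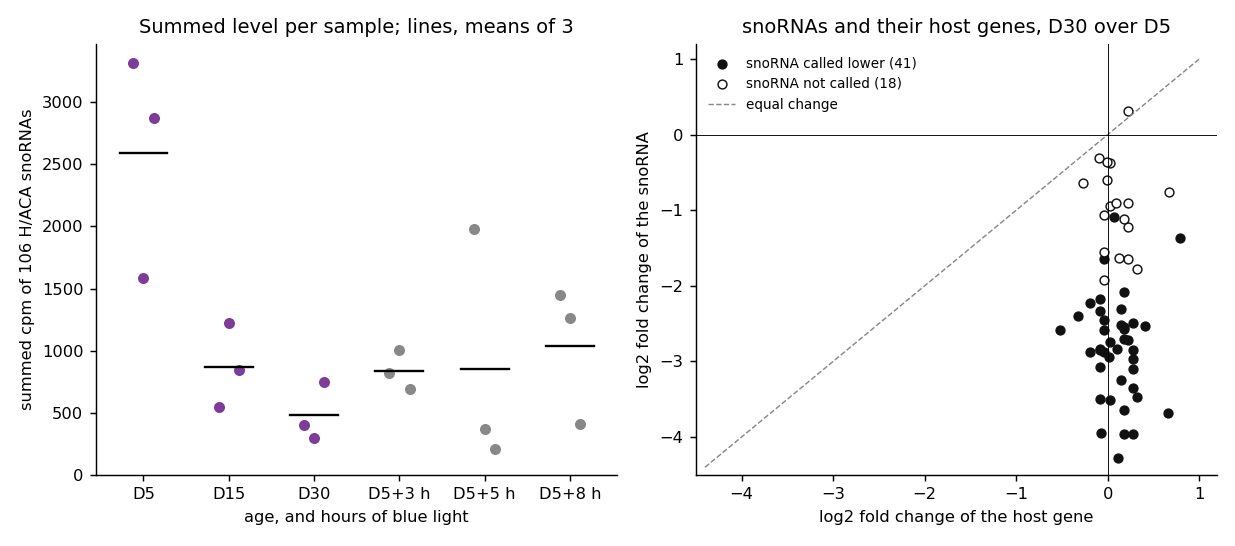
Left, the summed level of the 106 counted H/ACA snoRNAs in cpm (y axis) in each sample of the 6 groups (x axis), with lines at the means of 3. Right, the log2 fold change of each of 59 snoRNAs (y axis) against that of its host gene (x axis) with a dashed line of equal change. The hosts lie near 0 while nearly all snoRNAs lie below it.

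Long non-coding RNAs were called higher more often than genes as a whole. Of 270 tested lncRNAs, 61 rose (22.6%) and 19 fell (median 0.37 on the log2 scale). Of 160 antisense RNAs, 30 rose (18.8%) and 3 fell (median 0.45). Examples are lncRNA:CR46254, with means of 3.24 cpm at D5 and 17.8 cpm at D30 (adjusted p = 4.94e-04), asRNA:CR43971, with 1.85 and 10.9 cpm (2.23), and asRNA:CR43609, with 10.1 and 42.2 cpm (2.12). Those that fell included lncRNA:CR43900, from 182, 506 and 324 cpm to 78.3, 136 and 164 cpm (-1.40), and lncRNA:CR44360, from 63.2, 81.9 and 69.5 cpm to 13.7, 23.8 and 37.4 cpm (-1.49). Of 36 pseudogenes, 7 rose and 2 fell. Read pairs that aligned both to a pseudogene and to its parent gene were not counted, so these counts are uncertain. In the quintile of all genes with the lowest levels the median was 0.23. Since strand use in counting is not given in the sources used here, reads of an antisense RNA and its partner cannot be told apart.

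Position and size of the genes were described beside their calls. Of 94 genes tested on chromosome 4, the small chromosome that is largely heterochromatic, 20 rose (21.3%) and 2 fell, with a median of 0.20. Besides Kif3C, these included lncRNA:CR44024 (1.29), CG33941 (1.27), CG33521 (1.05) and the transcription factor genes onecut (0.55), NfI (0.81) and Mitf (0.53). Without the factors only 2 of the 94 were called higher. Genes that fell were longer, with a median span of 6.64 kb against 3.25 kb for those that rose and 3.02 kb for all tested genes. In the quintile of genes with the longest spans, 343 of 1874 (18.3%) fell and 155 (8.27%) rose. On the other chromosome arms the share called was between 7.92% and 10.2% in either direction.

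Phototransduction genes moved in both directions. Of 29 tested, 6 rose and 4 fell (median log2 fold change 0.25). ninaE, the gene of the rhodopsin Rh1, was at 6348, 4711 and 5235 cpm at D5 and at 8585, 9913 and 12526 cpm at D30 (1.00 ± 0.15, adjusted p = 6.23e-04), and the ages did not overlap. The others that rose were rtp (1.00), which encodes retinophilin, Galphaq (0.84), the G protein that Rh1 activates, rdgB (0.72), a phosphatidylinositol transfer protein, the channel gene trp (0.69) and the arrestin gene Arr2 (0.44). Those that fell were trpl (-0.52), the second light-gated channel, Ggamma30A (-0.60), a subunit of the visual G protein, laza (-0.70), a lipid phosphate phosphatase, and Plc21C (-0.44).

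Both channel genes were abundant, with trp at 9464, 3845 and 6226 cpm and trpl at 11652, 18321 and 14943 cpm at D5, and with trp at 5719, 9279 and 11966 cpm and trpl at 6721, 12137 and 12149 cpm at D30. In trp the ages overlapped, and in trpl D30 replicates 2 and 3 were within the D5 range. Neither trp, trpl, Galphaq nor Arr2 was called in all 6 fits without 1 sample, while ninaE was. Summed over the list, D30 replicate 1 had 60162 cpm and the other D30 samples 97347 cpm or more, beside 81083 to 92666 cpm at D5. Without the factors only 1 member of the list was called, and without D30 replicate 3 the median turned to -0.10 with 1 member higher and 3 lower. Without D5 replicate 3 it had 2 higher and 1 lower, without D30 replicate 2 it had 3 and 2, without D30 replicate 1 it had 9 and 2, and without D5 replicate 2 it had 5 and 1.

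Of the genes that make up the light-sensing organelle and the eye's identity, fewer moved. Moe, the moesin that links actin to the membrane, rose (1.40, adjusted p = 1.54e-03), as did the polarity gene sdt (0.38), among 14 rhabdomere genes tested. Among 19 eye transcription factors, lz (0.75), onecut (0.55) and oc (0.48) rose, and pros (-0.97), which marks R7 and cone cells, and dac (-0.67) fell. The 3 called higher became 1 without D5 replicate 3, without any one D30 sample and without the factors. The opsin Rh4 of R7 cells rose (0.85) and Rh7 fell (-0.73), while Rh3 (0.31), Rh5 (-0.49) and Rh6 (0.49) were not called. Among 21 eye pigment genes, st (0.84) and v (0.76) rose and cm (-0.69) and Pu (-0.69) fell. These are 9.52% in each direction, near the 8.79% higher and 8.72% lower of all tested genes.

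In the histamine cycle, 2 of 9 genes fell and 0 rose. Ebony (e), which joins histamine to beta-alanine in glia, was at 34.4, 39.5 and 44.6 cpm at D5 and at 26.6, 19.1 and 19.7 cpm at D30 (-0.96 ± 0.16). The transporter gene ine went from 43.1, 37.7 and 44.9 cpm to 26.1, 16.4 and 16.6 cpm (-1.21 ± 0.16, adjusted p = 4.04e-04). Hdc, the enzyme that makes histamine, had a log2 fold change of 0.34 and was not called. FBgn0019643, which the study's supplement names AANAT1, an enzyme that acetylates monoamines, fell from 67.9, 52.2 and 65.1 cpm to 35.8, 24.4 and 23.2 cpm (-1.22 ± 0.13, adjusted p = 8.10e-05).

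Some genes of neurotransmission by acetylcholine, GABA and amines fell. Of 26 tested genes of GABA and acetylcholine signalling, 12 fell and 0 rose (median -0.60), and 25 of the 26 had a negative fold change. Gad1, which makes GABA, went from 72.5, 83.3 and 95.4 cpm to 42.0, 29.2 and 27.3 cpm (-1.49 ± 0.17, adjusted p = 1.46e-04). The acetylcholine receptor subunit genes nAChRbeta1 (-1.36) and nAChRalpha7 (-1.10), the GABA receptor gene GABA-B-R2 (-1.16), the vesicular transporter genes VGAT (-0.93) and VAChT (-0.87) and Gabat (-0.86), which breaks GABA down, fell with it. Of 34 receptors for amines, glutamate and peptides, 15 fell and 1, Ekar, rose (median -0.48). These included the glutamate-gated chloride channel GluClalpha (-1.15), the dopamine receptors Dop2R (-0.97) and Dop1R1 (-0.97) and the NMDA receptor subunits Nmdar1 (-0.84) and Nmdar2 (-0.90).

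Among channels, 6 of 20 potassium channel and cotransporter genes fell and 1 rose (median -0.25). Irk2 (-0.86), an inward rectifier, Ork1 (-0.80), a leak channel, KCNQ (-0.65), SLO2 (-0.64), kcc (-0.60) and Shaw (-0.56) fell, and Hk, a subunit of Shaker channels, rose (0.51). Of 22 sodium and calcium channels and pumps, 5 fell and 2 rose (median -0.02). The sodium channel gene para was at 446, 666 and 618 cpm at D5 and at 369, 226 and 277 cpm at D30 (-1.12 ± 0.21, adjusted p = 2.53e-03). Nckx30C (-1.05), a calcium exchanger of photoreceptors, and the calcium channel gene Ca-alpha1T (-0.96) also fell, while Orai (0.75) and Stim (0.36), which refill calcium stores, rose. Without D30 replicate 3, 3 of the potassium channel and cotransporter genes were called lower, and 0 without the factors. Of the gap junction genes, which were looked up after values had been seen, Inx7 (-1.30), Inx2 (-0.71) and shakB (-0.98) fell, while ogre (-0.45) and Inx3 (-0.05) were not called.

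Of 32 synaptic genes, 8 fell and 2 rose (median -0.11), with the neuroligin genes Nlg3 (-0.73), Nlg4 (-0.57) and Nlg2 (-0.50) and their partner Nrx-1 (-0.41) among the decreases and the vesicle gene nSyb (0.51) among the increases. Of 38 axon guidance genes, 9 fell and 0 rose (median -0.21), led by dock (-0.95), NetB (-0.88), Sema2a (-0.80), unc-5 (-0.79) and Dscam2 (-0.77). Genes with the longest spans were called lower in 18.3% of cases, and whether span had a part in these lists was not tested. Without the factors, 7 genes of GABA and acetylcholine, 3 receptors for amines, glutamate and peptides and 1 synaptic gene were called lower. Of the receptors, 6 were called lower without D30 replicate 3, 8 without D30 replicate 2 and 9 without D5 replicate 2, and 4 synaptic genes were without D30 replicate 1.

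**Figure D4:**
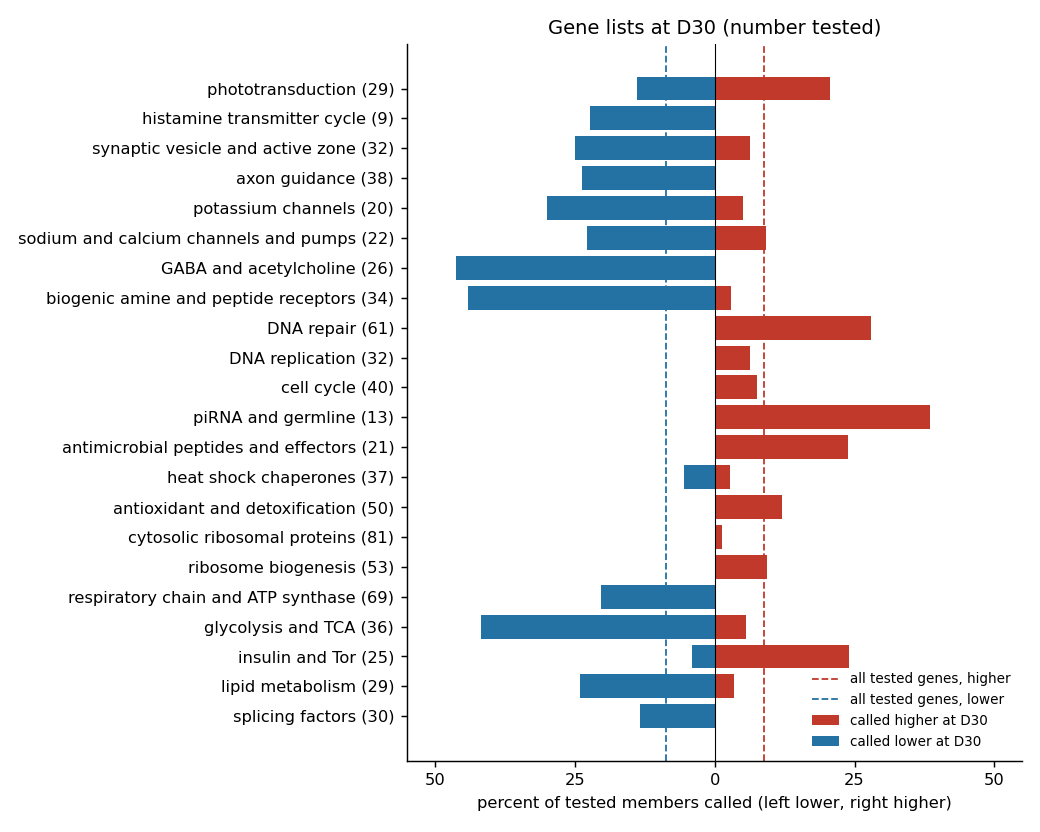
Percent of the tested members of 22 gene lists called lower (blue, left) and called higher (red, right) at D30, with the number tested in brackets and dashed lines at 8.79% and 8.72% for all tested genes. The transmitter and receptor lists lie to the left, and DNA repair lies to the right with no member lower.

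Some markers of other cell types were lower along with the neuronal lists. Of 23 tested markers of neurons other than photoreceptors, 13 fell and 1, prt, rose (median -0.77), and the summed level of the list was 1320 to 1686 cpm at D5 and 848 to 1195 cpm at D30. Of 17 glial markers 7 fell (median -0.47), of 9 cone and pigment cell markers 4 (median -0.45), of 13 hemocyte markers 6 (median -0.73) and of 10 fat body markers 3 (median -0.91). Of the hemocyte markers 1 rose, lz (0.75), which is also on the list of eye transcription factors. Of the fat body markers 1 rose, Amy-p. Over all tested genes 8.72% fell. Without the factors, 7 markers of other neurons, 1 of glia, 0 of cone and pigment cells, 4 of hemocytes and 2 of the fat body were called lower. Without D30 replicate 3 the number called lower was 3 for glia and 1 for cone and pigment cells, which had 2 without D5 replicate 2 or D30 replicate 2. The fat body median was -0.23 without D5 replicate 3, where the yolk protein gene Yp1 was at 105 cpm, against 1.88 and 2.90 cpm in the other D5 samples. The glial sum was 3984 to 4102 cpm at D5 and 2980 to 4093 cpm at D30, of which the transporter gene Eaat2 alone, with a log2 fold change of 0.00 and no call, made up 2662 to 2962 cpm and 1734 to 3227 cpm. The hemocyte sum was 771 to 886 cpm and 432 to 743 cpm, that of cone and pigment cells 504 to 539 cpm and 298 to 595 cpm, and that of the fat body 1792 to 2631 cpm and 1221 to 2250 cpm. Among these sums, only for neurons and hemocytes were all D30 samples below the D5 samples.

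Of single markers, Hml of hemocytes was at 69.2, 68.6 and 92.1 cpm at D5 and at 52.4, 40.2 and 28.6 cpm at D30 (-1.13 ± 0.14), and PPO1 (-2.01) and the lens protein gene Crys of the cone and pigment cells (-1.83) were lower too. Lsp1beta, a storage protein of the fat body, fell (-1.81), but the amylase gene Amy-p, on the same list, went from 9.75, 10.7 and 7.73 cpm to 70.8, 41.2 and 29.9 cpm (2.04 ± 0.24, adjusted p = 1.93e-04). Of 11 markers of R1-R6, 3 rose and 0 fell (median 0.30), with sums of 36119 to 51691 cpm at D5 and 35720 to 64791 cpm at D30. Only 1 of the 11 was called higher without D5 replicate 3, D30 replicate 2 or D30 replicate 3. The median was -0.036 without D30 replicate 3. Without the factors 1 was called higher, with a median of 0.15. Of 18 muscle markers none was called in either direction (median 0.15). The smallest adjusted p among them was 0.0511, for Zasp66, and the muscle sum was 9789 cpm in D30 replicate 1 and 4469 and 5015 cpm in the other D30 samples. The defining markers He and Fbp1 of hemocytes and fat body were under the filter, whereas repo of glia was at a mean of 28.1 cpm at D5 and 24.5 cpm at D30. Gad1, VGAT, VAChT and nicotinic receptor genes stand both on the list of other neurons and on that of GABA and acetylcholine, and what part the other cells had in the neuronal lists was not tested.

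**Figure D5:**
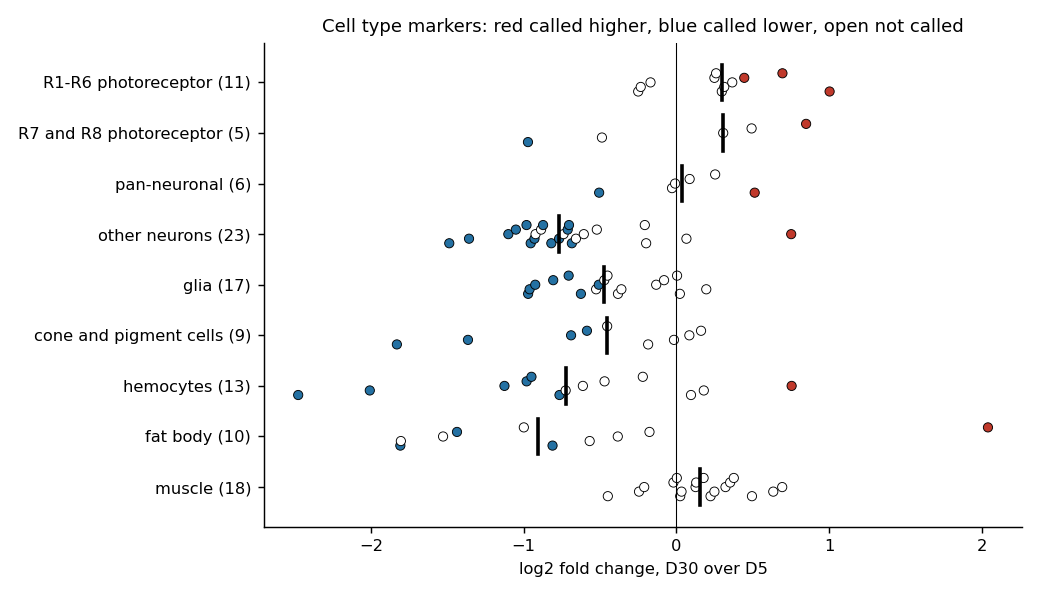
Log2 fold change of D30 over D5 (x axis) for each tested marker of 9 cell types (y axis, number tested in brackets), red where called higher, blue where called lower and open where not called, with a bar at the median. The medians of other neurons, hemocytes and fat body lie between -0.91 and -0.73 and that of R1-R6 at 0.30.

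Some DNA repair genes rose. Of 61 tested, 17 were called higher (27.9%) and 0 lower, and the median log2 fold change was 0.39. Fancd2, of the Fanconi pathway for crosslinked DNA, was at 3.70, 7.28 and 3.44 cpm at D5 and at 13.6, 20.6 and 12.2 cpm at D30 (1.51 ± 0.24, adjusted p = 1.03e-03). Its partner FANCI (1.00) rose as well, as did the helicase gene RecQ4 (1.2), the lesion-bypass polymerase PolH (1.17) and the mismatch repair genes Pms2 (0.83) and spel1 (0.67). Of the complex that senses double-strand breaks, rad50 went from 17.3, 17.6 and 18.2 cpm to 39.3, 36.1 and 39.9 cpm (1.04 ± 0.12, adjusted p = 1.93e-04), with no overlap and little spread, and mre11 rose by less (0.57). The checkpoint kinase gene tefu (ATM) rose (0.51). Without the factors 6 of the 61 were called higher, and without D5 replicate 2, D5 replicate 3 or D30 replicate 2 the number was 10.

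Related lists held fewer calls. Of 32 replication genes 2 rose, Psf3 (0.89) and Cdc7 (0.73), and of 40 cell cycle genes 3 rose, CycA (1.19), Cdk8 (0.81) and Dp (0.39), which are shares below the 8.79% of all tested genes. Neither list had a member that fell, and their medians were 0.36 and 0.30. Of 13 genes of the piRNA pathway, which silences transposons in the germline, 5 rose and 0 fell (median 0.42), among them spn-E, from 7.24, 9.68 and 3.68 cpm to 18.6, 25.9 and 20.1 cpm (1.42 ± 0.34), aub, from 0.855, 1.94 and 0.566 cpm to 2.32, 3.75 and 2.73 cpm, and AGO3 (1.16). AGO3 spans a region with many overlapping genes, so its count is uncertain, none of the 5 was called without the factors, and the number was 2 without D5 replicate 3 and 3 without any one D30 sample. Of 38 chromatin genes 3 rose (7.89%), led by the H3K9 methyltransferase Su(var)3-9 (0.82), and 3 fell (7.89%), trr, esc (-0.54) and HDAC6 (-0.40). Both shares are below those of all tested genes, 8.79% higher and 8.72% lower.

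Some genes of energy metabolism fell. In the respiratory chain and ATP synthase, 14 of 69 tested genes fell and 0 rose, and 66 of the 69 had a negative fold change (median -0.33). ND-B17.2 of complex I (-0.81), ATPsyngamma (-0.79), ATPsynB (-0.75), blw (-0.73), which encodes the alpha subunit of ATP synthase, and COX4 (-0.73) had the largest decreases. In glycolysis and the TCA cycle, 15 of 36 genes fell and 2 rose (median -0.42). Mpcp2, the mitochondrial phosphate carrier, went from 213, 170 and 218 cpm to 145, 91.0 and 90.8 cpm (-0.90 ± 0.13, adjusted p = 7.43e-04), and Ogdh (-0.87), kdn (-0.85), the citrate synthase, Gapdh1 (-0.71) and Pfk (-0.52) fell too.

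Ldh, lactate dehydrogenase, went the other way, from 6.95, 4.67 and 4.01 cpm to 18.8, 15.8 and 27.4 cpm (1.73 ± 0.53, adjusted p = 0.0350), with every D30 sample above every D5 sample. Without the factors 1 gene of each of these lists was called lower. In both lists D30 replicate 1 was the exception, with summed levels of 2604 and 5231 cpm that lay within the D5 range, with replicates 2 and 3 at 1782 and 1817 cpm for the respiratory chain and at 3345 and 3493 cpm for glycolysis and the TCA cycle. Without that replicate 26 genes of the respiratory chain and 22 of glycolysis and the TCA cycle were called lower, and without D30 replicate 2 only 5 of each were. Without D30 replicate 3 the numbers were 6 and 8, and without D5 replicate 3 they were 9 and 6.

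Of 29 genes of lipid metabolism 7 fell and 1 rose (median -0.23), among them the lipid droplet gene Lsd-1 (-0.98) and Mtpalpha (-0.83) and scu (-0.83) of fatty acid breakdown. Without D30 replicate 3, 1 fell and 2 rose (median -0.12). In the insulin and Tor pathways, 6 of 25 genes rose and 1 fell (median 0.07). The insulin receptor gene InR was at 146, 127 and 118 cpm at D5 and at 316, 277 and 376 cpm at D30 (1.36 ± 0.18, adjusted p = 3.64e-04), without overlap. Thor (1.06), the translation inhibitor 4E-BP, REPTOR (0.78), ImpL2 (0.76), a secreted inhibitor of insulin signalling, and Pdk1 (0.62) also rose, and the amino acid transporter gene slif fell (-0.97). The 6 called higher became 2 without D5 replicate 3, 3 without D5 replicate 2 and 2 without the factors.

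Some immune effector genes rose. Of 21 tested antimicrobial peptide and effector genes 5 rose and 0 fell (median 0.44). BomS6, a Bomanin peptide of the Toll response, was at 21.5, 11 and 16.5 cpm at D5 and at 79.3, 37.7 and 45.5 cpm at D30 (1.64 ± 0.35, adjusted p = 6.48e-03). Drosocin (Dro, 1.34), Tep1 (1.34), Listericin (0.98) and BomS3 (0.78) rose as well, and 1 gene of the list was called without the factors. Without D30 replicate 1, which had the highest level of BomS6, Dro, Listericin and BomS3, 1 was called as well, as was 1 without D5 replicate 3, and 3 were without D5 replicate 1, D5 replicate 2 or D30 replicate 2. Of 42 immune recognition and signalling genes 6 rose and 6 fell (median -0.06). Of the Imd pathway, its factor Rel (0.84), IKKbeta (0.60), the inhibitor pirk (2.09) and the receptors PGRP-LE (0.76) and PGRP-SD (0.97) were higher, while the receptor PGRP-LC (-1.41) was lower. Of the Toll pathway, dl rose (0.58) while its relative Dif fell (-1.03). Without D5 replicate 3, 1 of the 42 was called higher and 4 lower, without D30 replicate 1 these were 3 and 9, and without D30 replicate 2 they were 2 and 3. Without D5 replicate 1 or 2, 3 were higher, and without the factors 1 was called in each direction.

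The shares of stress genes called higher lay on both sides of the 8.79% of all tested genes. They were 2.70% for heat shock and chaperone genes, 12% for antioxidant and detoxification genes and 11.8% for apoptosis genes. Of 37 heat shock and chaperone genes 1 rose, the chaperonin subunit CCT6 (0.65), and 2 fell, Hsc70-1 (-0.95) and CG7409 (-0.96), although 32 of 37 had a positive fold change (median 0.39), and without D30 replicate 3 the number called higher was 12. Of 50 antioxidant and detoxification genes 6 rose and 0 fell (median 0.07), among them GstE8 (1.15), GstO3 (0.72) and Gclm (0.62), the glutathione synthesis subunit. Without D30 replicate 1, 1 was called higher and 3 lower, without D5 replicate 1 these were 4 and 3, and without D5 replicate 2 or 3, 2 were higher. Of 17 apoptosis genes the caspase gene Dronc (0.73) and the TNF gene egr (0.72) rose.

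Genes that make ribosomes and process RNA were tested as well. Of 81 cytosolic ribosomal protein genes 1 rose, RpS5b (1.04), and 0 fell (median 0.25), and of 53 ribosome biogenesis genes 5 rose, including Fib (0.83), the methyltransferase of the C/D snoRNA particles, and 0 fell. The shares that rose were 1.23% and 9.43%, beside 8.79% of all tested genes. Without D30 replicate 3, 41 of the ribosomal protein genes were called higher, and 13 without D5 replicate 1. Of the ribosome biogenesis genes 1 was called higher without D5 replicate 3, 2 without D30 replicate 1 or 2, 3 without D5 replicate 1 or 2 and 0 without the factors. Of 30 splicing factors 4 fell and 0 rose, B52 (-0.72), Rm62 (-0.59), SC35 (-0.52) and fne (-0.51). In the remaining lists 1 to 3 members were called in a direction. The shares called higher were 1.82% to 15%, beside 8.79% of all tested genes, and those called lower at most 7.69%, beside 8.72%. Mitochondrial ribosome genes had 1 higher of 55, V-ATPase genes 3 higher and 1 lower of 20, proteasome genes 1 higher of 33, autophagy genes 3 higher of 36, clock genes 2 higher (vri 1.67 and sgg 0.40) and 1 lower (to, -1.44) of 20, activity-regulated genes 1 each of 13, and dosage compensation genes 1 higher of 8, msl-2 (0.52).

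The D15 samples, from the lane of D5, give a level at an age between the others. At D15, 359 genes were called against D5 (3.81%), with 143 higher (1.52%) and 216 lower (2.29%). Between D30 and D15, 21 were called (0.223%), with 18 higher (0.191%) and 3 lower (0.0318%) at D30. At an unadjusted p under 0.05 the latter comparison had 984 genes. Both comparisons share samples with that of D30 and D5 and are given for their own values only. The 18 that rose from D15 to D30 included enzymes of one-carbon metabolism and purine synthesis. Gnmt, which methylates glycine, was at a mean of 33.0 ± 7.5 cpm (SD, n = 3) at D5, 15.3 ± 2.42 cpm at D15 and 83.6 ± 32.2 cpm at D30 (D30 over D15 2.11 ± 0.25, adjusted p = 4.42e-03). Sardh (1.59), which breaks down sarcosine, Ahcy (1.56), which hydrolyses S-adenosylhomocysteine, CG8665 (1.44), and Gart (1.37), CG11089 (1.45) and Paics (1.11) of purine synthesis rose likewise from D15 to D30. Gnmt, CG11089, Paics and pug were lower at D15 than at D5, and of these 4 Paics and pug were not called between D30 and D5.

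A list of these pathways was therefore compiled after the values had been seen, and it supports nothing beyond its description. Against D5, 11 of its 23 tested genes rose at D30 and 1 fell (median 0.45), with Sardh (1.62), Nmdmc (1.45), Ahcy (1.24) and Pfas (1.13) among the largest. Sardh was at 4.67, 3.93 and 5.56 cpm at D5 and at 25.5, 15.8 and 10.6 cpm at D30. The purine synthesis genes bur, Prat and Prat2 were not called. D30 replicate 1 had the highest level of most of these genes, with a summed level of 2360 cpm against 1385 and 1586 cpm, and all 3 were above the D5 range of 1050 to 1302 cpm.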

How the data were processed

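RNA of GFP-tagged photoreceptor nuclei was sequenced as paired reads. Per the methods of the study and the labels, the authors trimmed reads with Trimmomatic, aligned them with HISAT2 and counted them on genes with HTSeq, and deposited raw counts for 17811 features in 18 samples, with read pairs not counted in separate rows, which were left out of library sizes and tests. The spread between replicates is that of separate pools of flies. Names and positions came from the Ensembl annotation of BDGP6 (17710 features matched).

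The filter asked for over 10 counts in each of the 18 samples and left 9427 genes. RUVs was written anew from its description, with 2 factors, and all 18 samples were fitted with edgeR 4.0.16 (R 4.3.3, limma 3.58.1), TMM scaling, a mean per group and the factors as covariates. Quasi-likelihood F-tests were adjusted with Benjamini-Hochberg over all tested genes. The pipeline was tested on simulated data. Level sums and non-overlap used cpm, and log2 fold changes came from the fit.

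Members, the 46 gene lists and the rules were chosen with earlier results of these data known, and 1 further list was added after values were seen. Named genes were, by rule, the 8 highest and the 8 lowest log2 fold changes among called genes with a mean of at least 2 cpm and no overlap of the ages, the 4 with the smallest p in each direction, up to 3 called members per list, GFP, Cat, w and ninaE, and the largest changes among genes that only a weaker filter keeps (cpm over 1 in 3 samples). Other genes named are members of these lists or neighbours, chosen after their values were seen. Alternatives were 0, 1 or 3 factors, other filters, DESeq2 (1.42.0) size factors or its Wald test, glmTreat against 1.2 times, fits of fewer groups, a replicate block and fits without each sample. GO terms were not used here. Some genes of the lists are not reported here by name.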

Additional observations from a re-analysis of the deposited data

Results flagged for a closer look

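Between D30 and D15, 21 genes passed the test, so that for these genes the later ages differed by a test of the difference itself. The pseudogene CR43086 (1.56 on the log2 scale) and lncRNA:CR34335 (1.18) were higher at D30, and GV1 (-0.98) and Jhbp13 (-1.03) were lower. The Bomanin gene BomS6 was higher by 2.21. Of the enzymes of one-carbon metabolism and purine synthesis, Gnmt (2.11), Ahcy (1.56), Sardh (1.59), CG8665 (1.44), Gart (1.37), Paics (1.11), CG11089 (1.45) and pug (0.93) were higher. D30 and D15 were sequenced on different flow cells, so that age and flow cell cannot be told apart here either.

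Read pairs that aligned to several places were not used in any test. Their share was 26.2%, 25.2% and 26.6% in the D30 samples, above the D5 control samples, where the highest was 10.5%. Which sequences they came from was not tested.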

How the results depend on the processing

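No log2 fold change of a named gene changed sign with a call, and of 129 named genes called, 61 were still called without factors, 102 with 1 factor, 127 with 3 factors, 63 with the filter of cpm over 1 in 3 samples, 88 in glmTreat and 128 in the DESeq2 Wald test. Counts for D30 against D5 (1651, 829 higher, 822 lower) were 415, 230 and 185 without factors. With 1 factor 517 were lower. With a filter of cpm over 10 in every sample 535 were higher. With cpm over 1 in 3 samples they were 571, 201 and 370, and with no filter 601, 176 and 425, so that fewer of the calls were increases. glmTreat against 1.2 times gave 775, 372 and 403, the 6 samples without factors 315, 146 and 169, and the 9 samples of the 3 ages 390 higher and 726 lower. Leaving out 1 sample gave 898 to 1779 called, 346 to 987 higher and 529 to 920 lower. For D15 against D5 (359) the counts were 15 without factors, 20 with cpm over 10, 53 in glmTreat, 79 in the 9 samples, 658 in DESeq2 and 10 to 462 without 1 sample. For D30 against D15 (21) they were 228 with 1 factor, 39 with cpm over 1, 69 with no filter, 8 in glmTreat, 65 in the 9 samples, 85 in DESeq2 and 2 to 131 without 1 sample. The 49 snoRNAs called lower became 26 without factors and 7 with cpm over 10, a filter that few snoRNAs pass. The other causes were not tested.

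Same-numbered D5 and D30 samples correlated at 0.03, 0.40 and 0.05 in their deviations after the factors, so the numbers were not taken as pairs. With the replicate block 1837 genes were called for D30 against D5 (915 higher, 922 lower), 557 for D15 against D5 and 61 for D30 against D15. DESeq2 size factors in edgeR gave 1671 (781 higher, 890 lower).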

Other observations

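The weaker filter of cpm over 1 in 3 samples kept 3557 more genes, of which 69 were called, 32 higher and 37 lower at D30. lncRNA:CR45158 had 0 counts in every D5 sample and 3.11, 2.94 and 2.99 cpm at D30, which is at least 17.7-fold higher when each D5 library is set at a floor of 3 counts (at most 0.170 cpm). CG41242 (5.65) and CG16826 (3.87) also rose. The weaker filter can pass a gene through 1 group alone. Among the 3 ages, lncRNA:CR45158 and CG41242 were above 1 cpm only at D30, where they were high, so their calls are given as description only. Besides Cks30A, snoRNA:Psi18S-841d (-4.16) and snoRNA:Psi28S-1192c (-4.14) were the lowest. snoRNA:Psi18S-841d was at 2.22, 0.854 and 1.18 cpm at D5 and at most 0.211 cpm at D30. Among the 3 ages it was above 1 cpm only at D5, so its call is description only as well. snoRNA:Psi28S-1192c was at most 0.617 cpm at D30, also a low level.

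Of 11 testis and germline markers 1 passed the filter, and their summed level was 10.9, 18.1 and 7.17 cpm at D5 and 21.0, 41.4 and 16.8 cpm at D30. On X, the neighbours Inx7, lncRNA:CR43837, Inx2 and cm were all called lower.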
